A study of Capra hircus with 9 samples.

Results

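The steroid metabolizing enzyme genes described here were *SRD5A1*, *SRD5A2*, *SRD5A3*, *HSD11B1*, *HSD11B2*, *HSD17B4*, *HSD17B12*, *CYP19A1*, *STS* and *SULT1E1*. They were chosen by symbol, with their stage differences already known, and 9 of the 10 were matched among the 23499 genes of the deposited expression table. *SULT1E1*, the estrogen sulfotransferase, was not analysed here. The libraries were made from whole mammary gland tissue of 9 healthy Laoshan dairy goats, 1 library per goat, all of parity 3 and on average 4 years old, kept on the same farm with no treatment named in the labels. The 3 stages compared had 3 goats each, namely late lactation (LL, 240 days postpartum), the dry period (DP, 300 days postpartum) and late gestation (LG, 140 days after mating). The comparisons ask how the expression of these genes differs between the gland in late lactation, in the dry period and in late gestation. A time after mating is given for the LG goats only. Different goats were sampled at each stage, and no goat was followed through the stages.

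Steroid hormones reach the mammary gland from the blood and are converted within its cells. The 5-alpha-reductases convert testosterone and progesterone to their 5-alpha-reduced forms, and the 11-beta-hydroxysteroid dehydrogenases form or remove active glucocorticoid. The 17-beta-hydroxysteroid dehydrogenases interconvert more and less active estrogens and androgens or act on fatty acids. Aromatase makes estrogens, and steroid sulfatase and the sulfotransferases release and store them as sulfates. In the gland, estrogen and progesterone are known for ductal and alveolar growth, and glucocorticoids for the maintenance of milk secretion.

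No unit is named in the deposited table. The values are taken here to be FPKM, fragments per kilobase of transcript scaled to the mapped fragments of the library. On that reading, levels of different genes are per length. The 9 libraries did not share a composition. The 10 most abundant genes made up 80.6% to 86.0% of the summed FPKM of the LL libraries, against 53.6% to 58.1% for DP and 55.0% to 58.5% for LG. Each library was therefore divided by a median-ratio scaling factor, which was 0.498 to 0.605 for LL, 1.44 to 1.53 for DP and 1.2 to 1.31 for LG, and the quotient is called scaled FPKM below. Log2 fold changes were fitted on log2(scaled FPKM + 1), which understates the change of genes of low level. A gene was called when its Benjamini-Hochberg adjusted p in limma was below 0.05 and its log2 fold change was at least 1 in size. Where a direction or call printed for a named gene differed without the scaling, the value without it is given.

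Of the 9 genes, 8 passed the filter of at least 0.5 FPKM in at least 3 libraries, and *CYP19A1* did not. *STS* passed only through the DP libraries. *SRD5A2* reached 0.5 FPKM outside LG only in LL replicate 3 (0.69) and DP replicate 3 (1.17). Outside DP, *HSD11B1* reached it only in LG replicate 2 (0.54), and *HSD11B2* only in LG replicates 2 and 3. These genes thus also needed the stage where their mean is highest to pass, and their calls are a description only. By the mean over the 9 libraries, the order of level was *HSD17B12* at 15.8 scaled FPKM, *HSD17B4* at 9.67, *SRD5A2* at 8.39, *SRD5A1* at 6.63, *SRD5A3* at 2.48, *HSD11B1* at 1.5, *HSD11B2* at 1.27, *STS* at 0.247 and *CYP19A1* at 0.0073. The median of the 14701 genes tested was 4.60 scaled FPKM, so that 4 of the genes lay above it. Of these, *SRD5A2* did so through LG alone, with stage means of 0.778, 0.476 and 23.9 in LL, DP and LG. The order changed from stage to stage. *HSD17B12* led in LL, *HSD17B12* and *HSD17B4* were level in DP, and *SRD5A2* led in LG.

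Because these genes were picked with their stage differences known, their changes are given below as a description, with a standard error and without a p-value. In DP relative to LL, *HSD11B1* and *HSD11B2* were called higher and *HSD17B12* was called lower, 3 of 8, where 22.6% of all genes tested were called, 13.8% higher and 8.79% lower. In LG relative to LL, *SRD5A2* and *HSD11B2* were called higher and *HSD17B12* lower, again 3 of 8, where 17.3% of all genes were called, 10.7% higher and 6.61% lower. In LG relative to DP, *SRD5A2* was called higher and *HSD11B1* lower, 2 of 8, where 13.3% of all genes were called, 6.37% higher and 6.88% lower. Over the 8 genes the log2 fold changes had medians of −0.05, 0.17 and −0.09 in the 3 comparisons, beside 0.0041, 0.0194 and 0.0083 over all genes tested. Nothing is read from these counts. Both comparisons with LL share its 3 libraries, and both comparisons with DP share those of DP.

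**Figure D1:**
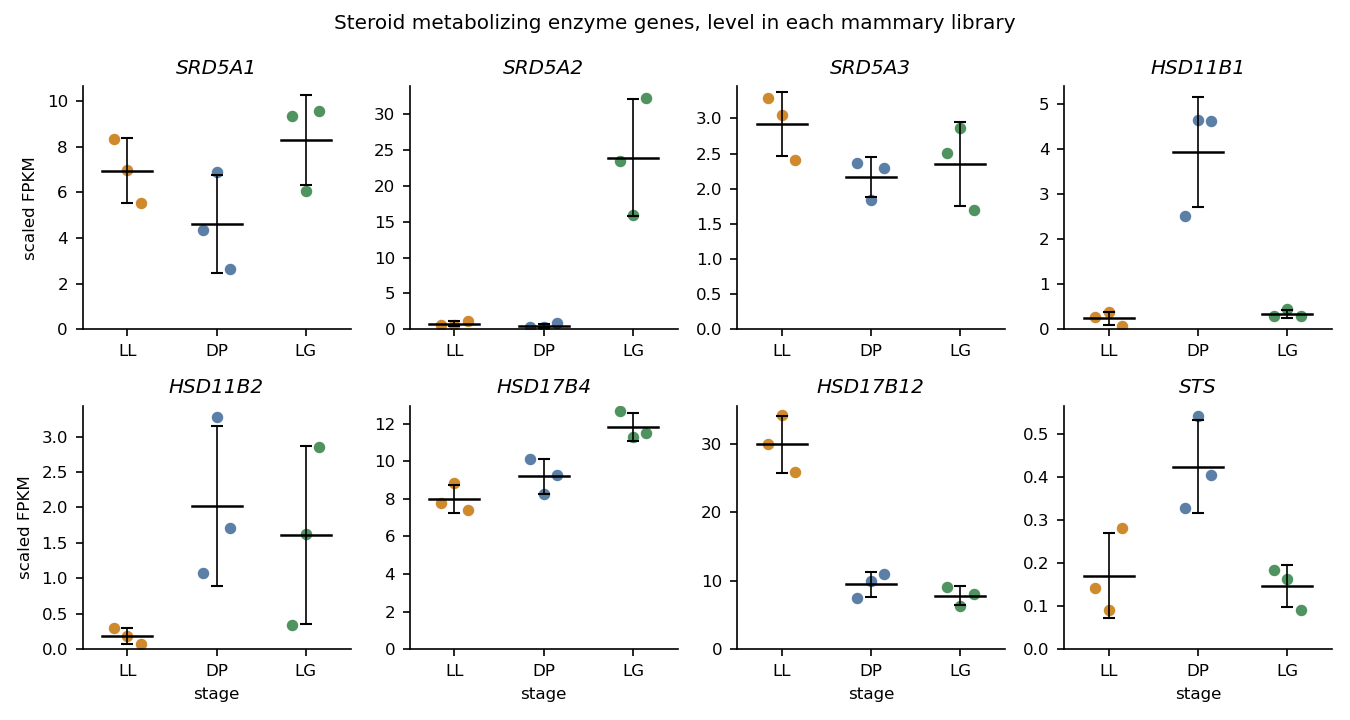
Scaled FPKM (linear axis from 0, a separate range for each gene) of 8 steroid metabolizing enzyme genes in the 9 mammary libraries, by stage. Each point is 1 goat, the long bar is the stage mean and the whiskers are ± SD (n = 3). *SRD5A2* stands high in all 3 LG libraries, *HSD11B1* in all 3 DP libraries and *HSD17B12* in all 3 LL libraries.

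The clearest difference within the group belonged to *SRD5A2*, the 5-alpha-reductase of classical androgen target tissues (gene 102187232, chromosome 11, 14166235 to 14215772, minus strand, as the deposited table gives it and at the same position in the ARS1.2 annotation, as for the other genes). Its level was 0.542, 0.651 and 1.14 scaled FPKM in LL, 0.288, 0.326 and 0.813 in DP, with 23.5, 16.0 and 32.3 in LG. Every LG library was thus above every LL and DP library, while LL and DP overlapped. The means of LL, DP and LG were 0.778 ± 0.318, 0.476 ± 0.293 and 23.9 ± 8.18 (SD, n = 3). The LG mean was 30.8 times that of LL and 50.3 times that of DP. The log2 fold change was 3.77 in LG relative to LL and 4.04 in LG relative to DP, each with a standard error of 0.25. In DP relative to LL it was −0.27, and 0.22 without scaling, neither of them called. The gene made up 1.65% ± 0.887, 1.47% ± 0.879 and 41.7% ± 6.51 of the summed scaled FPKM of the 9 genes in LL, DP and LG (SD, n = 3), a share that does not depend on the scaling between libraries.

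*SRD5A1*, a second 5-alpha-reductase with wide tissue distribution (gene 102172667, chromosome 20, 66521371 to 66557879, minus strand), did not follow *SRD5A2*. Its level was 8.36, 7.0 and 5.52 scaled FPKM in LL, 4.33, 6.90 and 2.65 in DP, with 9.34, 6.05 and 9.56 in LG. The stages overlapped in every comparison. The means were 6.96 ± 1.42, 4.63 ± 2.14 and 8.31 ± 1.97 (SD, n = 3), and no comparison was called. On the log2 scale the change was −0.56 in DP relative to LL, 0.22 in LG relative to LL and 0.77 in LG relative to DP, each with a standard error of 0.28. Without scaling the first became 0.63 and the second 1.23, the latter then called. Without DP replicate 2, the DP library with the highest level, LG relative to DP was called at 1.05, and without DP replicate 3 it was 0.50. In DP relative to LL the values without these libraries were −0.84 and −0.28.

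Within a library, the ratio of *SRD5A2* to *SRD5A1* is free of the scaling. On the log2 scale it was −3.95, −3.43 and −2.28 in LL, −3.91, −4.40 and −1.70 in DP, with 1.33, 1.40 and 1.76 in LG. *SRD5A1* was therefore the more abundant of the pair in all 6 LL and DP libraries and *SRD5A2* in all 3 LG libraries. The stage means were −3.22 ± 0.85, −3.34 ± 1.44 and 1.5 ± 0.23 (SD, n = 3). As linear values, *SRD5A2* was 2.52, 2.64 and 3.38 times *SRD5A1* in the LG libraries.

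*SRD5A3* encodes a polyprenol reductase that supplies dolichol for protein glycosylation (gene 102180581, chromosome 6, 71351388 to 71367631, plus strand). It stayed within a narrow range, at 3.29, 3.05 and 2.41 scaled FPKM in LL, 2.37, 1.84 and 2.30 in DP, with 2.51, 2.86 and 1.70 in LG. The DP libraries lay just below those of LL, and LG overlapped with both. Its log2 fold change was −0.30 in DP relative to LL, −0.23 in LG relative to LL and 0.07 in LG relative to DP, with a standard error of 0.16, and none was called. All 3 changed sign without scaling, to 0.69, 0.58 and −0.10, so that no direction is given for *SRD5A3*.

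The dry period stood apart in *HSD11B1*, whose product regenerates active glucocorticoid from its inactive keto form (gene 102168375, chromosome 16, 72192175 to 72232663, minus strand). The level was 0.261, 0.380 and 0.0826 scaled FPKM in LL, 2.52, 4.63 and 4.62 in DP, with 0.284, 0.438 and 0.289 in LG. All 3 DP libraries were above all 6 others, and LL and LG overlapped. The means were 0.241 ± 0.150, 3.92 ± 1.21 and 0.337 ± 0.0873 (SD, n = 3), so that the DP mean was 16.3 times that of LL and 11.6 times that of LG. The log2 fold change was 1.96 in DP relative to LL and −1.85 in LG relative to DP, with a standard error of 0.19. It was 0.11 in LG relative to LL, and −0.21 under quantile normalization. The LL values rest on deposited FPKM of 0.13, 0.21 and 0.05, which were given to 2 decimals. *HSD11B1* made up 12.0% ± 2.77 of the summed level of the 9 genes in DP, 0.469% ± 0.256 in LL and 0.635% ± 0.300 in LG (SD, n = 3).

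*HSD11B2*, whose product inactivates glucocorticoid (gene 102183447, chromosome 18, 36306115 to 36311845, plus strand), was low in LL and variable in the other stages. Its level was 0.301, 0.181 and 0.0661 scaled FPKM in LL, 1.07, 3.27 and 1.71 in DP, with 0.342, 1.62 and 2.85 in LG. LG replicate 1 was close to the LL libraries, and the other LG libraries lay within the range of DP. On the log2 scale the change was 1.29 in DP relative to LL, 1.02 in LG relative to LL and −0.27 in LG relative to DP, with a standard error of 0.37. The LG relative to LL call was lost without LL replicate 1 (1.09), LL replicate 2 (1.02), LL replicate 3 (0.94), LG replicate 2 (0.95) or LG replicate 3 (0.67), without the filter on low values (1.02) and under quantile normalization (0.75). The DP relative to LL call was lost under quantile normalization (0.83). The LG relative to DP value changed sign without DP replicate 2 (0.0089) and without LG replicate 1 (0.14).

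The balance of the activating and the inactivating enzyme was on the side of *HSD11B1* in DP and of *HSD11B2* in LG. The log2 ratio of *HSD11B1* to *HSD11B2* was −0.21, 1.07 and 0.32 in LL, 1.23, 0.50 and 1.43 in DP, with −0.27, −1.89 and −3.30 in LG. *HSD11B1* exceeded *HSD11B2* in all 3 DP libraries and in 2 of the LL libraries, and was below it in all 3 LG libraries. LL and DP overlapped. The LG values were the lowest, but LG replicate 1 and LL replicate 1 rest on deposited FPKM of 0.34 and 0.41 and of 0.13 and 0.15, and at 2 decimals their order is not resolved. The positive value of LL replicate 3 rests on 0.05 and 0.04 FPKM. The stage means were 0.40 ± 0.64, 1.05 ± 0.49 and −1.82 ± 1.52 (SD, n = 3), with the widest spread in LG. With each library left out in turn they ranged from 0.058 to 0.70, 0.87 to 1.33 and −2.60 to −1.08. *H6PD*, which supplies the reduced cofactor for HSD11B1, could not be set beside them, because its deposited values equal those of its neighbour *SPSB1* apart from a fixed amount per library.

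**Figure D2:**
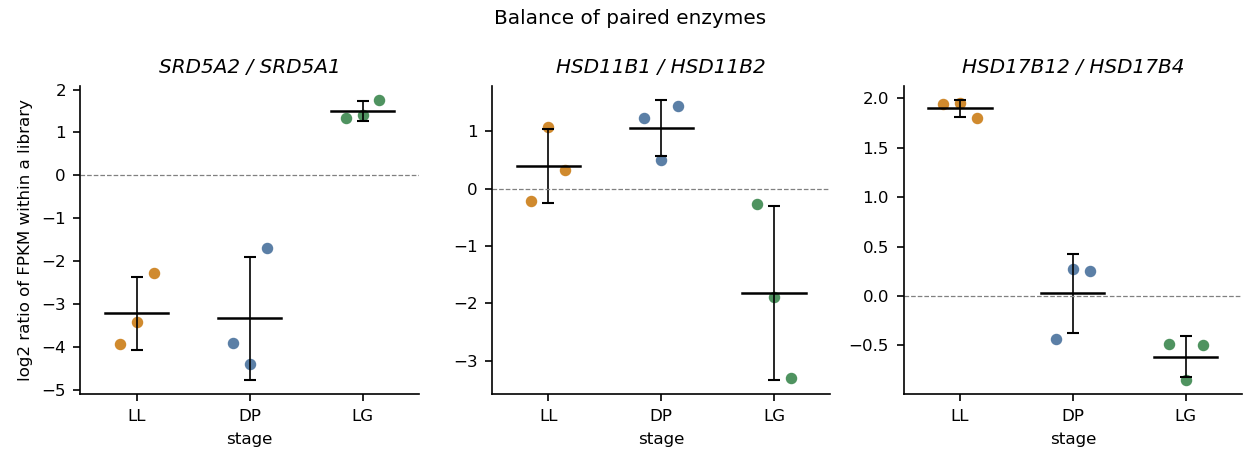
Log2 ratio of the FPKM of paired enzymes within each library, by stage. Each point is 1 goat, the long bar is the stage mean, the whiskers are ± SD (n = 3), and the dashed line marks equal levels. Only the 3 LG libraries lie above the line for *SRD5A2* over *SRD5A1*, the LG libraries lie below it for *HSD11B1* over *HSD11B2*, and only the LL libraries lie far above it, near 1.9, for *HSD17B12* over *HSD17B4*.

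*HSD17B12*, an enzyme of very long chain fatty acid elongation that is also assigned activity on estrone (gene 102186887, chromosome 15, 9045285 to 9214313, minus strand), was highest in late lactation. Its level was 29.9, 34.2 and 25.8 scaled FPKM in LL, 7.49, 9.95 and 11 in DP, with 9.03, 6.26 and 8.12 in LG. All LL libraries were above all others, and DP and LG overlapped. The means were 29.97 ± 4.17, 9.48 ± 1.80 and 7.80 ± 1.41 (SD, n = 3), so that LL was 3.16 times DP and 3.84 times LG. Its log2 fold change was −1.57 in DP relative to LL and −1.82 in LG relative to LL, with a standard error of 0.18. On the deposited scale the means were 16.5 ± 2.13, 13.9 ± 2.23 and 9.73 ± 1.75 FPKM, the log2 fold changes shrank to −0.24 and −0.71, neither was called, DP overlapped with LL, and every DP library was above every LG library. The share of *HSD17B12* in the summed level of the 9 genes was 60.8% ± 1.90, 29.2% ± 3.84 and 13.9% ± 1.69 in LL, DP and LG (SD, n = 3). In LG *SRD5A2* made up 41.7% ± 6.51 of that sum, which lowers the share of every other gene there.

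*HSD17B4*, the bifunctional enzyme of peroxisomal beta-oxidation that also oxidizes estradiol (gene 102172142, chromosome 7, 76164451 to 76264055, plus strand), varied least between the goats of a stage, with a coefficient of variation of 9.21%, 10.1% and 6.34% in LL, DP and LG. Its level was 7.78, 8.82 and 7.40 scaled FPKM in LL, 10.1, 8.25 and 9.24 in DP, with 12.7, 11.3 and 11.5 in LG. On these scaled values LG was above both other stages in every library, and LL and DP overlapped. On the deposited values LG and DP overlapped, with DP replicate 1 at 15.45 FPKM above every LG library, and every DP library was above every LL library. The means were 8.0 ± 0.737, 9.20 ± 0.932 and 11.8 ± 0.750 (SD, n = 3). The log2 fold change was 0.18 in DP relative to LL, 0.51 in LG relative to LL and 0.33 in LG relative to DP, with a standard error of 0.12, and none was called. Without scaling, the values in DP relative to LL and LG relative to LL became 1.42 and 1.54, and both were called. A ratio to *HSD17B12*, chosen after the values were seen, is free of this choice. The log2 ratio of *HSD17B12* to *HSD17B4* was 1.90 ± 0.084, 0.030 ± 0.40 and −0.61 ± 0.21 in LL, DP and LG (SD, n = 3), and the 3 stages did not overlap.

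*STS*, the steroid sulfatase (gene 102187208, chromosome X, 62165383 to 62322930, minus strand), was near the lower end of the genes tested. Its level was 0.141, 0.0904 and 0.281 scaled FPKM in LL, 0.327, 0.541 and 0.403 in DP, with 0.184, 0.162 and 0.0913 in LG. The DP libraries were above the others, with deposited FPKM of 0.50, 0.78 and 0.58. On the log2 scale the change was 0.28 in DP relative to LL, −0.03 in LG relative to LL and −0.31 in LG relative to DP, with a standard error of 0.14. Since *STS* passed the filter through the DP libraries alone, where it is high, nothing is read from these changes or from its place among the 8 genes. Under quantile normalization the first became −0.17, and the second was 0.11 without scaling, 0.038 without LL replicate 3 and 0.0062 without LG replicate 3, so that no direction is given for it. *STS* overlaps *PUDP* on the opposite strand, and reads of the pair cannot be told apart where strand is not used.

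*CYP19A1*, the aromatase gene (gene 100861413, chromosome 10, 44007959 to 44058566, minus strand), was listed at 0 FPKM in all 3 LL libraries, in DP replicate 1 and in LG replicate 1. The other libraries held 0.03 and 0.03 FPKM in DP and 0.02 and 0.01 in LG. No fold change is given for it.

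**Figure D3:**
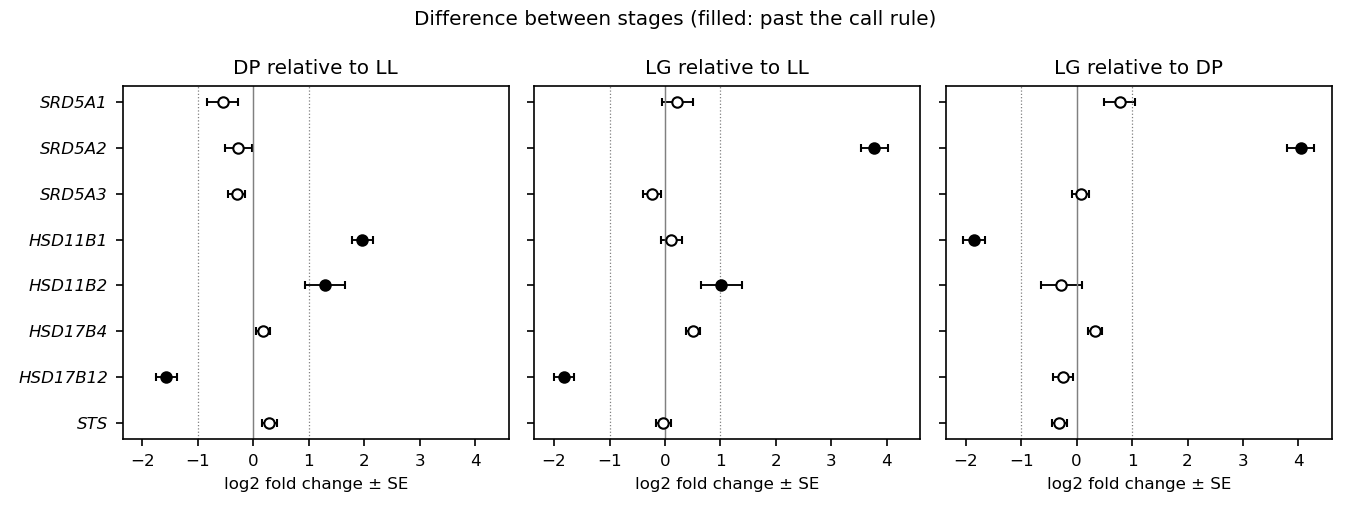
Log2 fold change ± standard error of the 8 genes tested in DP relative to LL, LG relative to LL and LG relative to DP, from limma on log2(scaled FPKM + 1). Filled symbols mark calls. *SRD5A2* lies near 4 in both comparisons of LG, *HSD11B1* near 2 in DP relative to LL, and *HSD17B12* between −1 and −2 in both comparisons with LL.

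In 5, 4 and 4 of the 8 genes the scaled values of the stages did not overlap in DP relative to LL, LG relative to LL and LG relative to DP. The first and last counts include *STS*, which passed the filter through the DP libraries alone, and nothing is read from them. Over all genes tested the share without overlap was 65.9%, 61.1% and 47.9%. The genes whose profile over the 9 libraries was most like that of a member are given as a description only, since all libraries share the same 3 stages. For *SRD5A2* these were *TMCO4*, *STK32B* and *ZNF185* (Pearson's r = 0.987, 0.986 and 0.984, n = 9 libraries). For *HSD11B1* they were *HERC6*, *MAPK11* and the clock gene *ARNTL* (r = 0.989, 0.986 and 0.986). For *HSD17B12* they were *METTL9*, the asparagine synthetase gene *ASNS* and *CCDC85A* (r = 0.990, 0.988 and 0.986), of which *METTL9* has values tied to those of a neighbouring gene. For *HSD11B2* they were *RUVBL2*, *NAF1* and *ZNF513* (r = 0.954, 0.947 and 0.941).

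The same comparisons were then read in 9 lists of other genes that make, conjugate, bind or answer steroids or share a pathway with a member. These lists and the marker lists further below were also chosen with earlier results of these data known. Their counts and p-values are therefore a description, and nothing is read from how they stand beside the shares of all genes. Of their genes 82 were tested. In DP relative to LL 6 rose and 13 fell, in LG relative to LL 7 rose and 17 fell, and in LG relative to DP 11 rose and 13 fell, where the shares of all genes called were 22.6%, 17.3% and 13.3%. Without scaling the numbers were 34 rising and 4 falling, 23 and 3, and 8 and 16, so that the direction of the lists relative to LL rests on the scaling. Of the 82 genes, 8 had values tied to a same-strand neighbour and are counted here but not described. P-values below are adjusted over all genes tested with limma, and the log2 fold change beside each is given ± standard error. Beside counts at an unadjusted p under 0.05, 31% and 31.3% of all genes tested were higher and lower in DP relative to LL, 28.7% and 28% in LG relative to LL, and 23.6% and 21.8% in LG relative to DP.

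Among the 7 steroid hormone receptors described, *ESR1* and *PGR* stood high in LG. *ESR1*, the estrogen receptor alpha gene, was at 14.4, 7.65 and 10.04 scaled FPKM in LL, 13.6, 6.96 and 5.50 in DP, with 26.8, 25.5 and 24.1 in LG. It rose in LG relative to LL (log2 fold change 1.21 ± 0.30 SE, adjusted p = 0.00773) and in LG relative to DP (1.54 ± 0.30, adjusted p = 0.00365). *PGR*, the progesterone receptor gene and itself a target of estrogen receptor, was at 3.04 ± 0.651, 3.53 ± 1.07 and 14.4 ± 3.61 scaled FPKM in LL, DP and LG (SD, n = 3). It rose in LG relative to LL (1.91 ± 0.23, adjusted p = 0.00017) and in LG relative to DP (1.76 ± 0.23, adjusted p = 0.000495). In both genes all LG libraries were above all others, as was *SRD5A2*.

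The mineralocorticoid receptor gene *NR3C2*, whose product also binds glucocorticoid where HSD11B2 does not remove it, followed another course. It was at 15.9, 23.2 and 17.3 scaled FPKM in LL, 2.24, 1.83 and 1.60 in DP, with 6.41, 6.96 and 4.40 in LG. The 3 stages did not overlap, with LL highest and DP lowest. It fell in DP relative to LL (−2.76 ± 0.19, adjusted p = 5.59e-06) and in LG relative to LL (−1.52 ± 0.19, adjusted p = 0.000203), and rose in LG relative to DP (1.25 ± 0.19, adjusted p = 0.00104). The LG relative to LL call was lost without scaling (−0.44). The glucocorticoid receptor gene *NR3C1* had log2 fold changes of −0.53, −0.16 and 0.36 in the 3 comparisons and was not called in any. Relative to LL both values changed sign without scaling, to 0.81 and 0.95, so that no direction is given for it. *GPER1*, a membrane estrogen receptor gene, was at −0.57 ± 0.12 in LG relative to LL (adjusted p = 0.00292), under the size needed for a call, and at 0.21 without scaling. *PGRMC1* and *PGRMC2*, of progesterone binding, were at −0.15 and 0.07 there, the former at 0.99 without scaling. None of these 3 genes was called in any comparison, although *PGRMC1* (1.17) and *PGRMC2* (1.37) were called in DP relative to LL without scaling, and *ESR2* did not pass the filter.

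Of 10 genes that answer to glucocorticoid, with values of their own, 7 fell and none rose in LG relative to LL (median −1.65 on the log2 scale), and 5 fell and none rose in LG relative to DP (median −1.15), where 6.61% and 6.88% of all genes tested were called lower. At an unadjusted limma p under 0.05 the counts were 10 and 6 lower and 0 and 0 higher, where 28% and 21.8% of all genes were lower. Without scaling, *DUSP1* (0.18), *KLF9* (0.053) and *ERRFI1* (0.38) changed sign in LG relative to LL, and none of them was called. In DP relative to LL 1 fell and none rose, and without scaling none fell and 4 rose. *FKBP5*, a glucocorticoid-induced chaperone partner of the receptor, was at 98.9, 120 and 148 scaled FPKM in LL, 30.9, 72.6 and 41.7 in DP, with 6.50, 10.5 and 57.6 in LG. It fell in LG relative to LL (−2.82 ± 0.65, adjusted p = 0.00564), and LG replicate 3 stood far above the other LG libraries. *TSC22D3*, the glucocorticoid-induced leucine zipper gene, was at 81.9 ± 19.6, 70.8 ± 6.23 and 22.4 ± 2.05 scaled FPKM in LL, DP and LG (SD, n = 3). It fell in LG relative to LL (−1.80 ± 0.20, adjusted p = 9.62e-05) and in LG relative to DP (−1.61 ± 0.20, adjusted p = 0.000342).

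*PDK4*, an inhibitor of pyruvate dehydrogenase, fell in LG relative to LL (−2.06 ± 0.43, adjusted p = 0.00373) and in LG relative to DP (−1.59 ± 0.43, adjusted p = 0.0189). The latter call was lost without DP replicate 1, DP replicate 2, LG replicate 1 or LG replicate 2 (−1.53 to −1.44). *ZBTB16*, a zinc finger transcription factor gene, was at 13.9, 21.7 and 24.2 scaled FPKM in LL, 23.1, 27.9 and 17.2 in DP, with 2.13, 6.39 and 15.6 in LG. It fell in LG relative to LL (−1.49 ± 0.50, adjusted p = 0.0315) and in LG relative to DP (−1.68 ± 0.50, adjusted p = 0.027). Neither call was stable. The first was lost without LL replicate 2, LL replicate 3, LG replicate 1 or LG replicate 2 (−1.51 to −0.89), without scaling (−0.42), without the filter (−1.49) and under quantile normalization (−1.35). The second was lost without DP replicate 1, DP replicate 2, LG replicate 1 or LG replicate 2 (−1.69 to −1.07), without the filter (−1.68) and with only the compared stages in the fit (−1.68). *NFKBIA*, the inhibitor of NF-kappa-B, fell in LG relative to LL (−1.91 ± 0.26, adjusted p = 0.000352). Without scaling *PDK4* was at −0.92 and *NFKBIA* at −0.77 relative to LL, and neither was called. *GLUL*, the glutamine synthetase gene, fell in DP relative to LL (−1.45 ± 0.41, adjusted p = 0.0137), a call lost without LL replicate 2 (−1.09), without scaling (−0.038) and under quantile normalization (−0.58). Of the 7 calls in LG relative to LL, 1 was left without scaling, where *TSC22D3* was at −0.64, and 5 were left under quantile normalization, without LL replicate 2 or without LG replicate 1. The 5 calls in LG relative to DP became 6 without scaling and 1 without DP replicate 2 or LG replicate 1. Their relation to *HSD11B1* and *HSD11B2* was not tested.

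**Figure D4:**
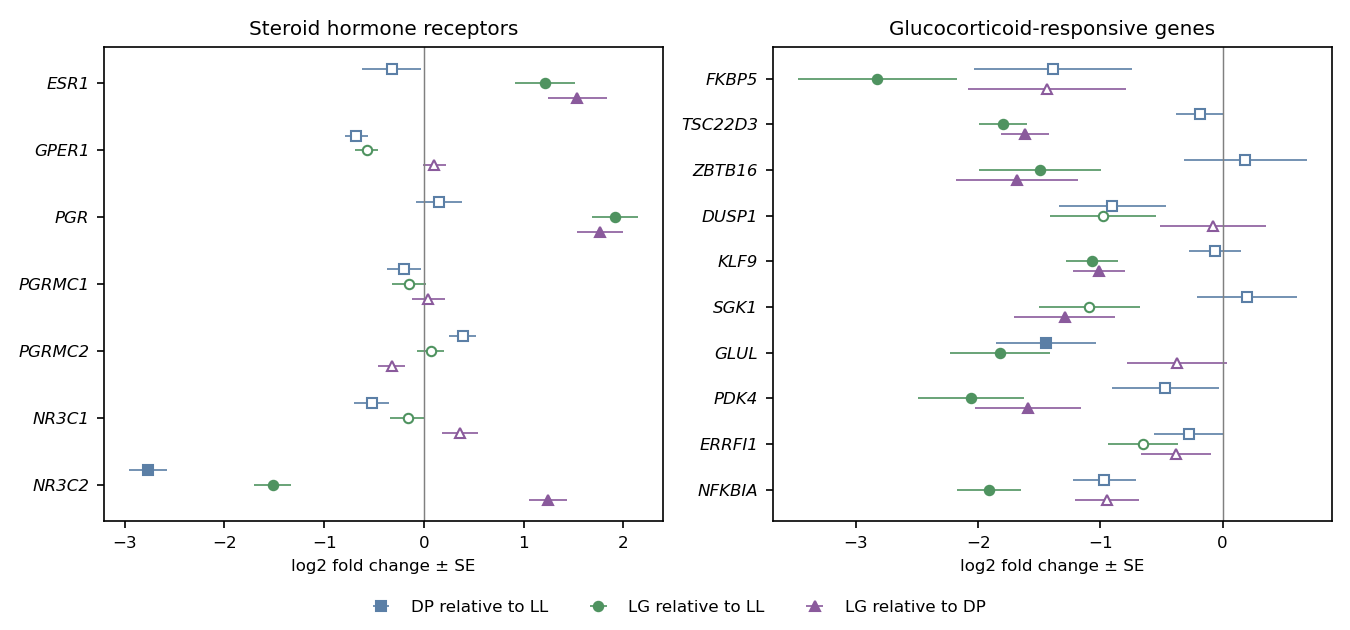
Log2 fold change ± standard error, from limma on log2(scaled FPKM + 1), of 7 steroid hormone receptor genes (left) and 10 glucocorticoid-responsive genes (right) in the 3 stage comparisons. Filled symbols mark calls at adjusted p below 0.05 and a log2 fold change of 1 or more in size. *ESR1* and *PGR* lie to the right in both comparisons of LG, *NR3C2* lies at −2.76 in DP relative to LL, and the responsive genes called all lie to the left.

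Genes known to answer to estrogen or progesterone were called in both directions in each comparison of LG. Of 10 tested, 2 rose and none fell in DP relative to LL, or 6 and none without scaling. In LG relative to LL 2 rose and 4 fell, and in LG relative to DP 1 rose and 4 fell. Of all genes tested, 13.8%, 10.7% and 6.37% were called higher in the 3 comparisons, and 8.79%, 6.61% and 6.88% lower. For the fall in DP relative to LL, limma gave 1 gene at an unadjusted p under 0.05. The 4 that fell in LG relative to LL became 2 without LL replicate 1, LG replicate 1 or LG replicate 2 and without scaling, and the 4 that fell relative to DP became 1 without DP replicate 2 or LG replicate 1 and 2 without LG replicate 2. The cell cycle gene *CCND1* rose in DP relative to LL (1.47 ± 0.25, adjusted p = 0.000959) and in LG relative to LL (2.21 ± 0.25, adjusted p = 0.000111), with 2.16 ± 0.405, 8.19 ± 3.86 and 13.6 ± 1.28 scaled FPKM in LL, DP and LG (SD, n = 3). *STC2*, a secreted glycoprotein gene, rose in DP relative to LL (1.55 ± 0.34, adjusted p = 0.00419) and fell in LG relative to LL (−2.51 ± 0.34, adjusted p = 0.000358), with levels of 5.37 ± 2.19, 18.3 ± 8.19 and 0.0827 ± 0.088. The growth factor gene *AREG* and the progesterone target *TNFSF11*, which encodes RANKL, were lower in LG than in LL (−1.76 ± 0.62, adjusted p = 0.0393, and −1.84 ± 0.46, adjusted p = 0.00842). The *AREG* call was lost without any single LL or LG library (−1.94 to −1.59), without scaling (−0.99), without the filter (−1.76) and under quantile normalization (−1.73). Against DP, *STC2* fell by 4.05 ± 0.34 (adjusted p = 7.05e-05), *AREG* was at −2.25 ± 0.62 (adjusted p = 0.0198) and *TNFSF11* at −1.68 ± 0.46 (adjusted p = 0.0188). The last pair of calls was not stable, since *AREG* lost it without DP replicate 2 (−2.08), LG replicate 1 (−2.25) or LG replicate 2 (−2.08), and *TNFSF11* without DP replicate 2 (−1.26), LG replicate 1 (−1.67) or LG replicate 3 (−1.67).

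Around the sulfatase, 10 genes of steroid conjugation and sulfate supply were tested. In DP relative to LL 1 fell, and in each comparison of LG 1 rose and 1 fell. Without scaling 4 rose and none fell in each comparison with LL. *PAPSS2*, which makes the sulfate donor of the sulfotransferases, was at 2.61, 3.45 and 2.15 scaled FPKM in LL, 3.63, 5.0 and 2.19 in DP, with 13.8, 15.1 and 17.0 in LG. It rose in LG relative to LL (2.14 ± 0.22, adjusted p = 7.47e-05) and in LG relative to DP (1.87 ± 0.22, adjusted p = 0.000316), with all LG libraries above all others. *SUMF1*, which activates sulfatases, was at 0.52 in LG relative to LL and was not called, though it was at 1.61 and called without scaling, and its relative *SUMF2* fell in DP relative to LL (−1.29 ± 0.19, adjusted p = 0.000444), though by 0.10 without scaling and then not called. The steroid sulfate transporter gene *SLCO2B1* fell in LG relative to LL (−1.05 ± 0.31, adjusted p = 0.0172), a call lost without LL replicate 1 (−0.80) or LG replicate 1 (−0.73) and under quantile normalization (−0.97), and its value was 0.0015 without scaling. It also fell in LG relative to DP (−1.09 ± 0.31, adjusted p = 0.0214), a call lost without DP replicate 2 (−1.03), DP replicate 3 (−1.03) or LG replicate 1 (−0.77).

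Among the other hydroxysteroid dehydrogenases and hydroxylases, 5 genes had values of their own. *HSD17B7*, which acts in cholesterol synthesis and on estrone, was at 21.8 ± 11.7, 2.49 ± 0.439 and 14.5 ± 4.34 scaled FPKM in LL, DP and LG (SD, n = 3). It fell in DP relative to LL (−2.58 ± 0.34, adjusted p = 0.000223) and rose in LG relative to DP (2.12 ± 0.34, adjusted p = 0.0015). The mitochondrial *HSD17B10* followed the same course (−1.51 ± 0.15, adjusted p = 3.99e-05, and 1.39 ± 0.15, adjusted p = 0.000203), although the first call was lost without scaling (−0.14) and under quantile normalization (−0.97). *HSD17B8*, of mitochondrial fatty acid synthesis, rose in LG relative to DP (1.06 ± 0.15, adjusted p = 0.000679), a call lost without LG replicate 3 (0.97) and without scaling (0.88). *HSD17B11*, a lipid droplet enzyme, fell in LG relative to DP (−1.34 ± 0.27, adjusted p = 0.00415). None of the 5 was called in LG relative to LL, where limma gave 2 of them higher at an unadjusted p under 0.05. Without scaling 3 were called higher there, among them *HSD17B8* (1.48) and *HSD17B10* (1.03). *HSD17B1* could not be described, as its values are tied to those of *NAGLU*.

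For steroid synthesis from cholesterol, 5 genes with values of their own were tested. In DP relative to LL 1 rose and 1 fell, and in LG relative to DP 1 fell. Without scaling *FDXR* was also called higher in DP relative to LL (1.32), and *FDX1* was no longer called. None was called in LG relative to LL, where limma gave 1 lower at an unadjusted p under 0.05 and 1 was called higher without scaling. *TSPO*, a cholesterol-binding protein of the outer mitochondrial membrane, was at 13.2 ± 1.90, 35.8 ± 18.3 and 10.2 ± 1.3 scaled FPKM in LL, DP and LG (SD, n = 3). It rose in DP relative to LL (1.27 ± 0.29, adjusted p = 0.00508), a call lost without DP replicate 3 (0.89), and fell in LG relative to DP (−1.61 ± 0.29, adjusted p = 0.0027). The ferredoxin gene *FDX1* fell in DP relative to LL (−1.14 ± 0.28, adjusted p = 0.00742), a call lost without LL replicate 2 (−0.85) and whose value was 0.13 without scaling.

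The routes shared with *HSD17B12*, *HSD17B4* and *SRD5A3* were read in the same way. Of 9 elongation genes, 1 rose and 1 fell in each comparison with LL, and 2 rose and 1 fell in LG relative to DP. Without scaling 5 rose and 1 fell, 3 rose and none fell, and 2 rose and 2 fell in DP relative to LL, LG relative to LL and LG relative to DP. *TECR*, whose product carries out the final reduction of the same elongation cycle, was at 38.2, 47.0 and 36.1 scaled FPKM in LL, 5.27, 6.06 and 6.31 in DP, with 21.3, 19.3 and 22.5 in LG. It fell in DP relative to LL (−2.58 ± 0.14, adjusted p = 2.32e-06) and rose in LG relative to DP (1.68 ± 0.14, adjusted p = 7.38e-05). In LG relative to LL it was at −0.91 ± 0.14, and at 0.23 without scaling. *TECR* was thus higher in LG than in DP in every library, whereas *HSD17B12* overlapped between them on the scaled values and was lower in every LG library on the deposited ones. The fatty acid elongase *ELOVL6* rose in LG relative to LL (1.59 ± 0.30, adjusted p = 0.00229) and in LG relative to DP (2.15 ± 0.30, adjusted p = 0.000729). *ELOVL5* fell in both (−1.19 ± 0.21, adjusted p = 0.00133, and −1.05 ± 0.21, adjusted p = 0.00389), the first lost without scaling (−0.30) and the second without DP replicate 3 (−0.95), LG replicate 1 (−0.86) or LG replicate 2 (−0.996). The dehydratase gene *HACD4* rose in DP relative to LL (1.16 ± 0.20, adjusted p = 0.00116), a call lost without DP replicate 3 (0.93) and under quantile normalization (0.66).

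Of 11 peroxisomal genes, 2 rose and 1 fell in DP relative to LL, 2 rose in LG relative to LL, and none was called in LG relative to DP, where limma gave 5 higher and 2 lower at an unadjusted p under 0.05. Without scaling 5 rose and none fell in each comparison with LL. The racemase gene *AMACR* rose in DP relative to LL (1.65 ± 0.24, adjusted p = 0.000422) and in LG relative to LL (1.76 ± 0.24, adjusted p = 0.000377), from 0.407 ± 0.242 scaled FPKM in LL to 3.37 ± 0.0626 and 3.94 ± 1.71 (SD, n = 3). The transporter gene *ABCD3* rose in LG relative to LL (1.59 ± 0.14, adjusted p = 2.62e-05). *ACOX2*, a bile acid and branched chain oxidase, rose in DP relative to LL (1.21 ± 0.22, adjusted p = 0.00161), a call lost without DP replicate 3 (0.94) and under quantile normalization (0.64). *SCP2*, the sterol carrier thiolase gene, fell in DP relative to LL (−1.04 ± 0.21, adjusted p = 0.00244), a call lost without LL replicate 2 (−0.89) or DP replicate 2 (−0.96) and under quantile normalization (−0.65), and its value was 0.32 without scaling.

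Of 7 dolichol genes, 3 fell in DP relative to LL, namely *DPM2* (−1.63 ± 0.15, adjusted p = 2.31e-05), *NUS1* (−1.15 ± 0.21, adjusted p = 0.00174) and *ALG5* (−1.13 ± 0.24, adjusted p = 0.0034). The *ALG5* call was lost without LL replicate 1 (−0.98) and under quantile normalization (−0.96), and without scaling *NUS1* was at 0.13, *ALG5* at 0.16 and *DPM2* at −0.33, none called. *DPM2* also fell in LG relative to LL (−1.04 ± 0.15, adjusted p = 0.000429), and was at −0.91 under quantile normalization and at 0.060 without scaling, not called in either. Without scaling 1 of the 7 rose and none fell in each comparison with LL. In LG relative to DP none was called, and limma gave 4 higher at an unadjusted p under 0.05. *SRD5A3*, in the same route, was not called.

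The libraries are of whole tissue, in which fewer cells of a type and less RNA per cell cannot be told apart. Markers of cell types were therefore set beside the genes above. All 8 luminal epithelial markers passed the filter in these libraries, and their summed level was 1087 ± 145, 501 ± 156 and 980 ± 101 scaled FPKM in LL, DP and LG (SD, n = 3). The most abundant of them, the alveolar factor *ELF5*, was at 596 ± 136, 32.1 ± 10.5 and 452 ± 44.7. It fell in DP relative to LL (−4.19 ± 0.25, adjusted p = 3.13e-06) and accounted for most of the lower sum. The other 7 markers summed to 491 ± 33.4, 469 ± 146 and 527 ± 71.3 scaled FPKM (SD, n = 3), and the stages overlapped. Of these 7, the prolactin receptor gene *PRLR* alone was called in DP relative to LL (−1.24 ± 0.22, adjusted p = 0.0013), and was at 0.14 without scaling. The keratin genes *KRT7*, *KRT18* and *KRT8* were at 0.86, 0.60 and 0.28 there, not called, and were called at 2.26, 1.92 and 1.67 without scaling. *KRT19*, the most abundant of the 7, was at −0.40, and was called at 1.01 without scaling. The adhesion genes *EPCAM* and *CDH1* were at −0.74 and −0.48, not called, and at 0.64 and 0.87 without scaling. The relation of *HSD17B12* to these markers was not tested.

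Beside *HSD11B1*, markers of fibroblasts and leukocytes were higher in DP. The mean endothelial sum was also highest in DP, at 132 ± 16.0, 177 ± 42.0 and 91.7 ± 16.5 scaled FPKM in LL, DP and LG (SD, n = 3). No endothelial marker was called in DP relative to LL, and *TEK* (−1.19) and *CLDN5* (−1.96) fell in LG relative to DP. Without scaling *CDH5*, *VWF*, *KDR*, *TEK*, *EMCN*, *ERG* and *CLDN5* were all called higher in DP relative to LL. Of 8 fibroblast markers 7 rose in DP relative to LL, where 13.8% of all genes tested were called higher, and 6 rose without DP replicate 3. Their summed level was 235, 249 and 358 scaled FPKM in LL, 578, 984 and 2696 in DP, with 535, 981 and 681 in LG, and *COL3A1* was most abundant. DP replicate 3 was far above the rest, and DP and LG overlapped. The largest rise in DP relative to LL was that of *COL1A1* (2.37 ± 0.68 SE). *COL1A1* and *COL3A1* were also called higher in LG relative to LL (2.12 ± 0.68 and 2.42 ± 0.53). In LG relative to DP they were at −0.25 and 0.26, not called, while *DCN*, *PDGFRA* and *FBLN1* fell (−2.09, −2.41 and −2.71). Of 6 leukocyte markers 4 rose in DP relative to LL, beside the same 13.8% of all genes, and 3 rose without DP replicate 1. Without scaling 6 rose, where 7979 of all 14701 genes tested were called higher. Their summed level was 37.0, 27.8 and 35.6 in LL, 114, 84.0 and 69.6 in DP, with 30.01, 36.3 and 25.0 in LG, and *CSF1R* was most abundant. None of the 8 fibroblast markers and none of the 7 leukocyte markers found was at 0. Among the DP libraries, *HSD11B1* was lowest in replicate 1, where the fibroblast sum was lowest and the leukocyte sum highest. Without DP replicate 3, the log2 fold change of *HSD11B1* in DP relative to LL was 1.85, and the call was kept. The part of these cells in the level of *HSD11B1* was not tested.

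Beside *SRD5A2*, the summed level of 15 skin, hair and sebaceous markers was 6.0, 2.78 and 59.1 scaled FPKM in LL, DP and LG, of which the hair keratin-associated gene *KRTAP11-1* made up 55.2 in LG. Most of the LL and DP sums was *KRT10*, at 5.10 and 1.92, whose values are tied to those of its neighbour *KRT12*. *KRTAP11-1* was at 82.2, 57.8 and 25.6 in the LG libraries, so that the library with the highest *SRD5A2*, LG replicate 3, had the lowest *KRTAP11-1*. It was at 0.181, 0 and 0.347 in LL and at 0.137, 0 and 0.125 in DP, and since it passed the filter through the LG libraries alone, no test is given for it. *KRT1*, *KRT2*, *LOR*, *KRT27* and *KRTAP3-1*, which mark keratinized skin and hair, are listed at 0 in all 9 libraries, and 12 of the 15 are listed under 0.5 FPKM throughout. *CEBPD* and *DOLK*, genes of many cell types named here after their values were seen, are listed at 0 in the same way, so that a listed 0 does not show that a gene was absent. Basal and myoepithelial markers summed to 231, 332 and 277 in LL, DP and LG, endothelial markers to 132, 177 and 91.7, adipocyte markers to 24.4, 21.3 and 10.7, and muscle markers to 1.12, 2.63 and 0.702, with *KRT5*, *PECAM1*, *PNPLA2* and *TNNI2* most abundant. Of these, the values of *KRT5* and *PECAM1* are tied to neighbouring genes, as are those of *KRT14* in the basal and myoepithelial sum. Of the 5 basal and myoepithelial markers with values of their own, 2 rose in LG relative to LL, 1 in LG relative to DP and 1 in DP relative to LL. Of all genes tested, 10.7%, 6.37% and 13.8% were called higher in these comparisons. Without scaling 3, 1 and 5 of the markers rose. The oxytocin receptor gene *OXTR* was at 0.1, 0.307 and 0 scaled FPKM in LL, 1.15, 1.21 and 0.313 in DP, with 5.24, 3.07 and 3.58 in LG. It was called higher in LG relative to LL (2.11 ± 0.23) and in LG relative to DP (1.41 ± 0.23), and the counts above include it. LG was above the other stages in every library, as for *SRD5A2*. Without the LG libraries *OXTR* would not have passed the filter, so no p-value is given and nothing is read from its calls. *TP63*, a transcription factor gene of basal cells, rose in both DP (1.47 ± 0.13, adjusted p = 1.84e-05) and LG (1.60 ± 0.13, adjusted p = 1.74e-05) relative to LL. The relation of *SRD5A2* to *KRTAP11-1* and to these markers was not tested.

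**Figure D5:**
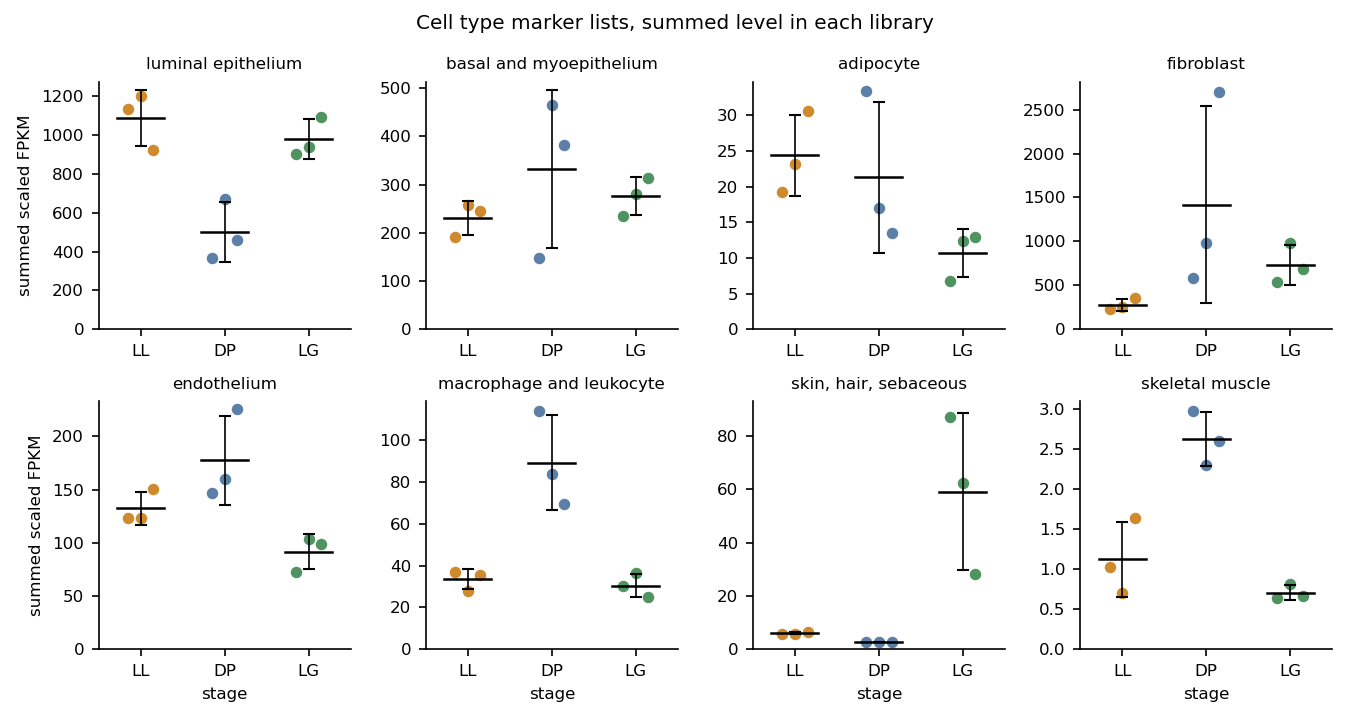
Summed scaled FPKM (linear axis from 0) of 8 lists of cell type markers in each library, by stage. Each point is 1 goat, the long bar is the stage mean and the whiskers are ± SD (n = 3). The fibroblast and leukocyte stage means are highest in DP, with 1 DP library at 2696 for fibroblasts. The luminal mean is lowest in DP, where *ELF5* is at 32.1 beside 596 in LL. The other 7 luminal markers sum to 469 in DP and 491 in LL. The skin and hair sum is high only in LG, where *KRTAP11-1* makes up most of it.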

How the data were processed

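RNA of mammary tissue from 9 goats was sequenced by the authors from TruSeq RNA v2 libraries. The submitters' processing notes name FastQC, Trimmomatic, HISAT2, SAMtools and HTSeq, and the methods of the study name StringTie for quantification. The deposited table holds 1 value per gene and library, to 2 decimals. It names no unit and no build, and its values were read as FPKM that the authors computed, since their sums differ between libraries (601250 to 1157015). All 9 value columns were used. Read depth cannot be recovered from these FPKM, so no count test was run and no counting error is given. All 23465 gene identifiers matched in the RefSeq table of ARS1.2 have the same start and end there as in the deposited table.

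Values were divided by median-ratio factors from 15905 genes, and log2(value + 1) was fitted for the 14701 genes that reached 0.5 FPKM in 3 or more libraries. The fit used limma (version 3.58.1, R 4.3.3) with a mean-variance trend and took all 9 libraries together without covariates. Calls required a Benjamini-Hochberg adjusted p below 0.05 and a log2 fold change of 1 or more in size. The fit was tested on simulated data. P-values measure the spread between goats, 3 per stage, and an exact permutation test of 3 against 3 could not go below 0.1. Means, ratios, shares and correlations came from Python (3.11.15), using pandas 2.3.3 and numpy 2.4.6.

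Neighbouring genes on the same strand were searched for tied values. Among 45822 pairs with a range of at least 0.5 FPKM, within 8 neighbours, a pair was tied when a straight line plus a fixed amount per library left a residual of at most 1.0% of the range. This held for 1506 genes, none of them a steroid metabolizing enzyme gene of the 9 described.

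The 10 genes, the 9 pathway lists and the 8 marker lists were chosen with earlier results of these data known. Named were these genes, the steroid hormone receptors other than 1 gene that is not reported here, up to 3 called genes per list, comparison and direction with the largest log2 fold change (tied genes are not described), direct partners of the enzymes, the 3 tested genes with the highest Pearson's r to each of the 4 members of widest range, and the most abundant and most changed markers. Alternatives were no scaling, quantile normalization, a pseudocount of 0.1, no filter, a filter at 2 FPKM, no trend, a replicate block, fits of the compared stages alone, each library left out in turn and, as a later addition with the values known, a fit that leaves the tied genes out.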

Additional observations from a re-analysis of the deposited data

How the results depend on the processing

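Without scaling between libraries, the median of all genes shifted by 1.09, 0.93 and −0.18 log2 units in DP relative to LL, LG relative to LL and LG relative to DP, and the genes called numbered 8348 (7979 higher, 369 lower), 7043 (6698 higher, 345 lower) and 2292 (715 higher, 1577 lower), beside 3321 (2029, 1292), 2544 (1572, 972) and 1948 (937, 1011). Pathway genes called in DP relative to LL then numbered 38, with 34 higher, and 12 under quantile normalization, beside 19. *FDX1* (0.13), *NUS1* (0.13), *ALG5* (0.16) and *SCP2* (0.32) in DP relative to LL, and *SLCO2B1* (0.0015), *DPM2* (0.060) and *TECR* (0.23) in LG relative to LL, changed sign without scaling. A pseudocount of 0.1 gave 3912 genes called in LG relative to LL. The called log2 fold changes of the steroid metabolizing enzyme genes kept their sign under every alternative tried. Leaving out each library in turn gave 3048 to 3454, 2435 to 2642 and 1775 to 2066 genes called, 3 to 3, 2 to 3 and 2 to 3 enzyme genes and 15 to 20, 19 to 26 and 15 to 24 pathway genes, with the 15 in LG relative to DP reached without LG replicate 1. The cause of these differences was not tested.

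The labels give the stages the same replicate numbers, but these are different goats. Deviations from the stage means correlated at −0.106 to 0.201 between libraries of the same number (n = 9 pairs) and at −0.223 to 0.0722 between others (n = 18 pairs). The best match had the same number in 10 of 18 cases. Libraries of the same number thus reached higher correlations, and these values do not exclude a link by number. The numbers were not taken to pair the libraries because they belong to different goats. With a replicate block, 3340, 2564 and 1986 genes, 3, 3 and 2 enzyme genes and 19, 26 and 23 pathway genes were called. Leaving out the tied genes, chosen after seeing the data, gave 3043, 2356 and 1751 genes and 17, 22 and 22 pathway genes. A filter at 2 FPKM left out *STS*. The ratio of *SULT1E1* to *STS* was not run. Levels and ratios of genes under 0.5 FPKM rest on values given to 2 decimals.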
